A study of Nasonia vitripennis with 76 samples.

Results

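Abdomens of diploid males were compared with abdomens of diploid females of the jewel wasp *Nasonia vitripennis* in the early generations of the TRA line. The comparison took 6 of the 76 libraries of the study. The 3 male libraries (A16, A18 and A20) came from generation F3 and the 3 female libraries (A26, A27 and A28) from generation F2. The libraries were taken by their labels, as the diploid abdomen groups of the earliest generations, and the rule that takes them uses no measured value. The comparison itself was chosen with earlier results of these data known. All wasps were of the TRA strain, a line with raised ploidy that goes back to a knockdown of *transformer*, so both sexes carried that history. They were sampled 1 day after emergence. Males were labelled genotype TRA_F3_2N and females TRA_F2_2N. Both sexes carried 2 chromosome sets (2N), so the contrast held ploidy equal, which the usual contrast of haploid males with diploid females does not. Sex and generation cannot be told apart here, because every male was F3 and every female F2. An abdomen holds the gonads, gut, fat body, cuticle, muscle and nerve cord together. Nothing in the labels tells whether the libraries are separate wasps, pooled wasps or separate rearings. The p-values of the main test draw on the spread within all 8 abdomen groups (36 libraries), not within these 6 libraries alone. That spread may be technical.

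In *Nasonia*, unfertilised eggs usually become haploid males and fertilised eggs become diploid females. Female development depends on *transformer* (*tra*), whose RNA the mother supplies to the egg. The protein made from it keeps the splicing of the embryo's own *tra* transcripts in the female form. The Transformer protein sets the sex-specific splicing of *doublesex* (*dsx*) and *fruitless* (*fru*), transcription factor genes that direct male and female differentiation. When *tra* is knocked down in the mother, fertilised eggs can develop as males that keep both chromosome sets, and such diploid males are fertile in this wasp. Adult female abdomens carry ovaries in which nurse cells load the oocytes with maternal RNA.

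All differences below are males minus females on the log2 scale, with the standard error (SE) after the ± sign, from edgeR's quasi-likelihood test. A gene was called where its p-value, adjusted by the Benjamini-Hochberg method across the whole table of tested genes, was below 0.05. Levels are counts-per-million values (CPM) of the scaled library, given for each library in the order A16, A18, A20 for males and A26, A27, A28 for females, and group means carry the SD with n = 3. The 6 libraries held between 21158695 and 30373012 counts each. Male libraries correlated with each other at r = 0.968 to 0.983 across genes on the log2 scale, A26 with A27 at 0.995, and males with females at 0.290 to 0.426.

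The library labelled A28 stood apart from the other 2 female libraries, with r of 0.922 and 0.929 to them. Of 10619 genes with a mean of at least 1 CPM over the abdomen libraries, 1045 were at least 4-fold lower in A28 than in the mean of A26 and A27, and 27 were at least 4-fold higher. The largest such count for a male library against the mean of the other 2 was 44. Of 1268 genes that were called, at least 8-fold higher in males, with a mean of at least 5 CPM there, and present in A26 and A27 (a mean of at least 1 CPM), 1065 had less than 0.5 of that mean in A28. Their median level in A28 was 0.129 of it. The test that chose these genes, and the female set that follows, included A28. A low level in A28 helped a gene enter the male set and hindered entry to the female set. These counts are therefore not independent of the choice of genes. Of 1222 genes that were called and at least 8-fold higher in females, with a mean of at least 5 CPM there, 1044 lay within 2-fold of the mean of A26 and A27 in A28. In 50 of these 1222, A28 had under 1% of that mean. One of the 50 was *LOC116416788*, at 523, 408 and 0.0362 CPM in the female libraries and 0 in each male library, and 41 of the 50 had at least 5 CPM in every F14 diploid female abdomen.

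A28 also held low levels of male-limited RNA. Judged from the late libraries alone, 17 genes had under 1 CPM in every F14 diploid female abdomen and at least 100 CPM in every F15 diploid male abdomen. A28 had counts of all 17, against 7 in A26 and 9 in A27. Their summed level was 149.8 CPM in A28, 1.05 in A26 and 1.44 in A27, against 15121 to 17665 in the early male libraries. *LOC100119680* had 3254, 3593 and 4490.0 CPM in males and 0, 0 and 34.1 CPM in females. A28 stays in the main test, and values without it are given where they matter. Its part in the results below was not tested beyond that.

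**Figure D1:**
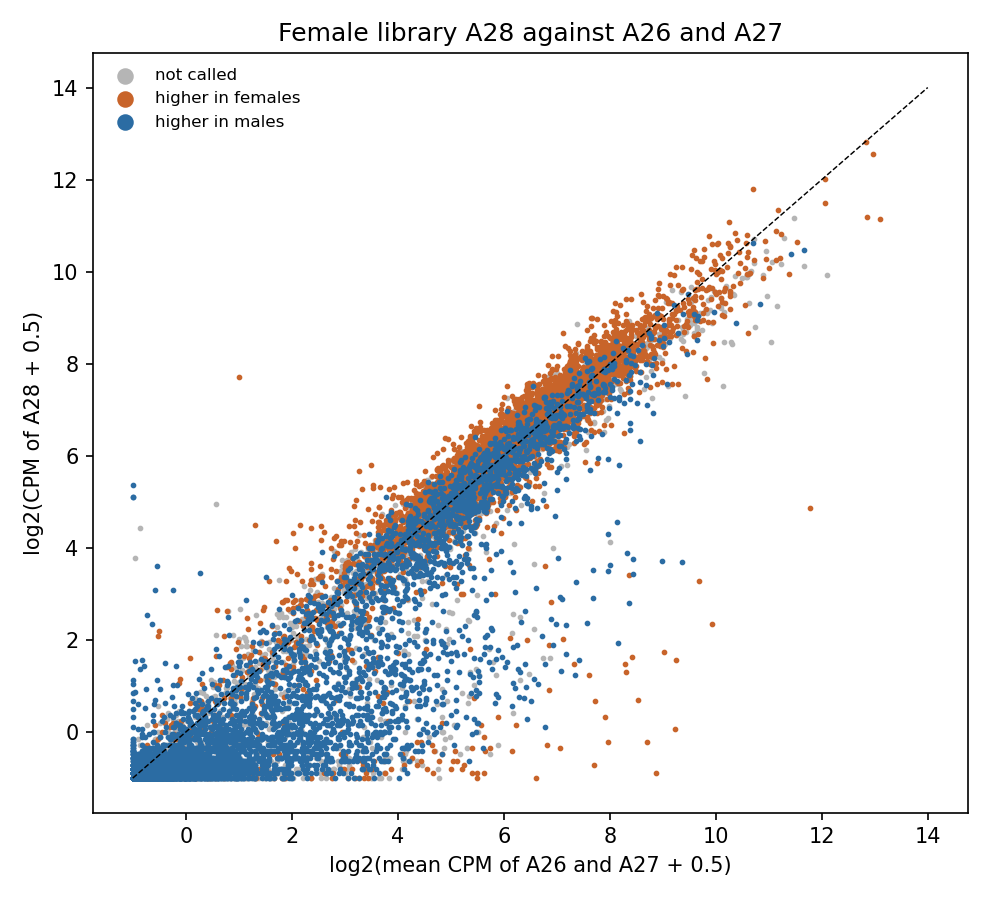
Level of each tested gene in the female library A28 (vertical axis, log2 of CPM + 0.5) against the mean of A26 and A27 (horizontal axis, same scale), coloured by the call in the comparison of males with females, with the line of equal levels dashed. Genes higher in males (blue) lie mostly below the line, and genes higher in females (orange) mostly on it. The calls used A28 itself, so colour and vertical position are not independent.

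The 2 sexes differed at most genes expressed in the abdomen. Of 12252 genes tested, 9982 were called (81.5%), 5222 higher in males (42.6%) and 4760 higher in females (38.9%). Differences of at least 2-fold were called for 4716 genes higher in males (38.5%) and 3927 higher in females (32.1%), and of at least 8-fold for 3255 (26.6%) and 1386 (11.3%). The 3 male and 3 female libraries did not overlap for 5143 genes higher in males (42.0%) and 4742 higher in females (38.7%). With so large a share of all genes called, the count of called genes in any list below has to be read against these percentages. The median difference over all genes tested was 0.25. It depended on the scaling, rising by 0.23 with the RLE scaling of the same genes and falling by 0.28 in a fit of the 6 libraries alone, in which 4289 genes were higher and 4504 lower in males. In bulk abdomens, a smaller share of cells of a type and less RNA per cell cannot be told apart, and all levels are relative to the rest of the same library.

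**Figure D2:**
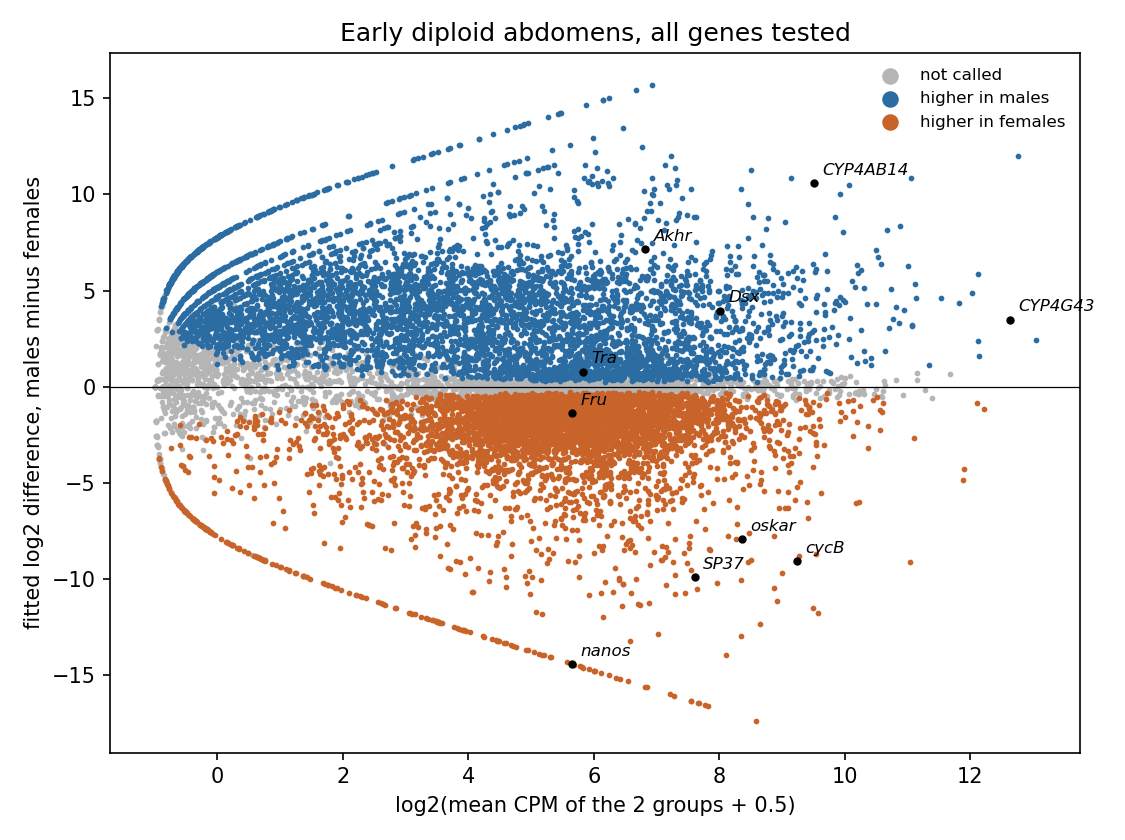
Fitted log2 difference, males minus females (vertical axis), against the mean level of the 2 groups (horizontal axis, log2 of CPM + 0.5) for the 12252 genes tested. Blue points were called higher in males, orange points higher in females and grey points not called, and genes described in the text are named. Differences above 10 in size are fits against groups at or near 0.

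*Tra*, the gene whose knockdown founded the line, was detected in all 6 libraries. Its level was 62.6, 75.4 and 77.2 CPM in males and 45.2, 49.8 and 29.3 CPM in females. It was 1.73-fold higher in males (0.79 ± 0.21 SE, adjusted p = 0.00096), and the groups did not overlap. The difference was 0.58 ± 0.22 without A28 (adjusted p = 0.018). The counts are per gene and do not separate the male and female splice forms, so the level says nothing of which form was made.

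*Dsx*, the transcription factor gene at the end of the sex determination cascade, showed the largest difference of the 3. Its level was 523, 484 and 450.2 CPM in males. In females it was 44.1, 44.3 and 5.72 CPM, so that A28 was the lowest library. The gene was 15.5-fold higher in males (3.95 ± 0.50, adjusted p = 2.6e-08), and the difference was 3.44 ± 0.44 without A28. *Fru*, best known from *Drosophila* for its role in male courtship circuits, went the other way. It stood at 24.7, 30.6 and 27.7 CPM in males and 79.5, 71.5 and 65.6 CPM in females, with no overlap. It was 2.61-fold lower in males (-1.38 ± 0.20, adjusted p = 2e-07).

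**Figure D3:**
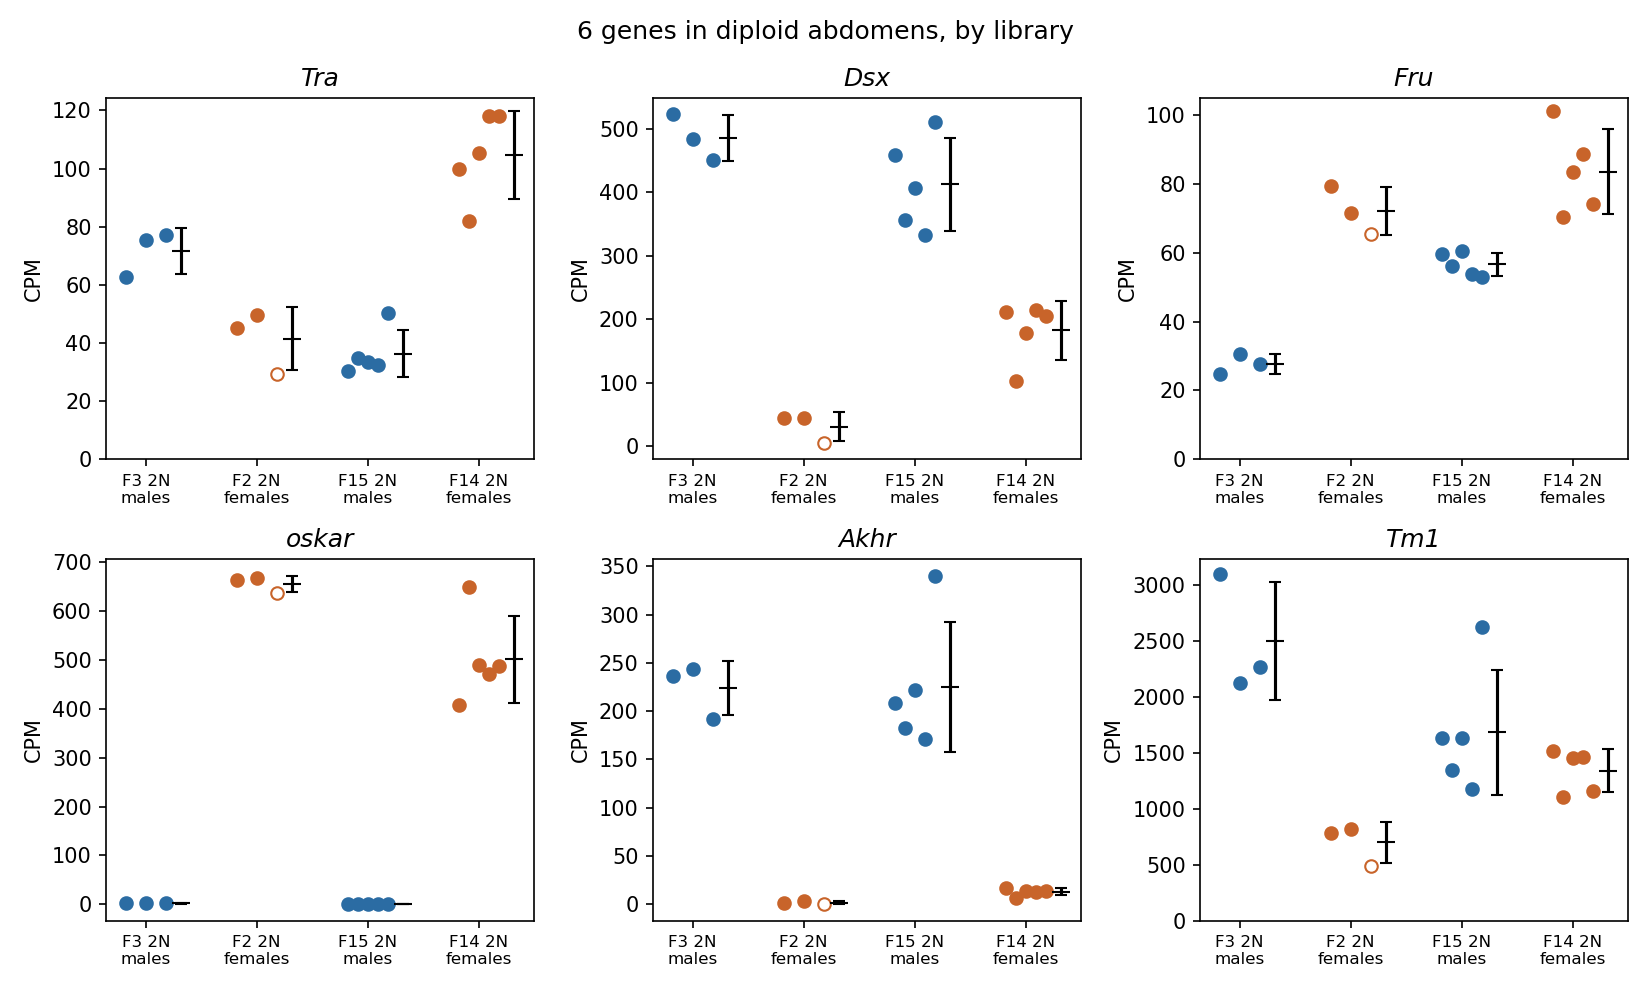
Levels in CPM (vertical axes, linear) of 6 genes in each library of the early (F3 males, F2 females) and late (F15 males, F14 females) diploid abdomens. Points are libraries, with males blue, females orange and A28 open, and bars give the mean and SD. *Tra* was higher in males early and lower late, and the sexes lay nearer for *Dsx*, *Fru* and *Tm1* late than early.

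Genes of the egg and its germ plasm were among the most female of all. *oskar* builds the germ plasm at the posterior pole of the oocyte. It had 2.59, 2.07 and 3.48 CPM in males and 662, 667 and 636 CPM in females, and was 241-fold lower in males (-7.91 ± 0.55, adjusted p = 5.7e-14). *nanos*, a translational repressor of the posterior and of germ cells, had no count in any male library and 112, 104 and 82.2 CPM in females. Against the level that 3 counts over the 3 male libraries would give (0.0463 CPM), *nanos* was at least 2150.5-fold lower in males. A28 was the lowest female library for both genes, by a small margin. *vasa*, also a marker of germ cells, was not found under that symbol.

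Of 6 genes of embryonic axis patterning, 5 were lower in males and 1 was higher, with a median difference of -4.47. The gap gene *Hb* (hunchback), loaded into the egg by the mother, had 1.57, 0.611 and 0.042 CPM in males and 186, 193 and 174 in females (-7.99 ± 0.79). Giant (*Gt*), another gap gene whose RNA is maternal in *Nasonia*, had 11.8, 9.3 and 11.6 CPM in males and 186, 265 and 162 in females (-4.22 ± 0.33). Caudal (*Cad*), which patterns the posterior, differed by -4.53 ± 0.47, *Kr* (Krüppel) by -5.20 ± 0.71 and the pair-rule gene *Eve* (even-skipped) by -4.40 ± 0.59. *Eve* reached 85.1 CPM in A28 against 38.6 and 33.6 in A26 and A27. The exception was *hairy*, a pair-rule gene that adult tissues also use, at 18.2 ± 3.43 CPM in males and 5.89 ± 0.292 in females.

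All 13 tested genes of the cell cycle list were lower in males, against 38.9% of all genes, with a median of -5.65. The list was made from symbols, and *Melk*, *Bora* and *Cenp-a* were added to it by name. Cyclin B (*cycB*), the partner of the mitotic kinase Cdk1, had 1.67, 1.97 and 3.1 CPM in males and 961, 908 and 1749 in females and was 533-fold lower in males (-9.06 ± 1.00, adjusted p = 1.6e-09). *Cdk1* itself had 0.558, 1.46 and 1.85 CPM in males and 273, 257 and 409 in females. The female libraries lay far above the male ones for both, and A28 was the highest of them. *fzy*, the Cdc20 activator of the anaphase-promoting complex, differed by -5.76 ± 0.42, *Plk4*, which duplicates centrioles, by -4.05 ± 0.30, and *Cenp-a*, the histone of centromeres, by -4.02 ± 0.32. *cycD*, the G1 cyclin, had 0.619 ± 0.499 CPM in males and 88.7 ± 13.9 in females. The smallest differences were those of *Cdk10* (-1.82 ± 0.16) and *Cdk5* (-0.96 ± 0.19), a kinase best known outside the cell cycle in neurons. For *E2f8* alone of the 13 the libraries of the sexes overlapped. The summed level of the list ran from 88.3 to 96.7 CPM over the male libraries and from 2145 to 3456 CPM over the female libraries.

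Genes of DNA repair and meiosis followed, with 16 of 18 tested lower in males, none higher and a median of -3.10. *Smc2* of condensin had 5.07, 4.56 and 2.73 CPM in males and 123, 105 and 189.9 in females (-5.08 ± 0.30, adjusted p = 1.2e-15). The cohesin genes *Smc1a* and *Smc3* differed by -3.08 ± 0.20 and -3.08 ± 0.23. *Hop2*, which helps strand exchange in meiosis, differed by -4.89 ± 0.49. Of the 2 members not called, *Xrcc2* had a difference of 0.24 ± 0.34 (adjusted p = 0.52) and was present at a few CPM in each sex.

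The 5 genes of chromatin and DNA methylation were all lower in males, with a median of -3.32. The maintenance DNA methyltransferase *Dnmt1a* had 30.9, 24.6 and 24.5 CPM in males and 172, 157 and 191 in females (-2.70 ± 0.18). The methyl-CpG binding gene *Mbd* differed by -2.20 ± 0.17, and the histone deacetylase *Rpd3* by -5.16 ± 0.31, from 6.87 ± 3.36 CPM in males to 245 ± 25.2 in females. *Brd8*, a bromodomain protein, differed by -3.34 ± 0.20. *Ahcy*, which clears the product of methyl transfer, differed by -3.32 ± 0.52. Of 11 genes of the dynein motor and its dynactin partner, 7 were lower in males and 2 higher, with a median of -0.80. *Dctn4* differed by -1.40 ± 0.14, *DLC-A* by -1.32 ± 0.19, *Arp11* by -1.07 ± 0.18 and *Dctn2* by -0.80 ± 0.15, and the members higher in males were *Dctn3* (0.63 ± 0.21) and *TctexA* (1.31 ± 0.52). *Ift52*, a gene of intraflagellar transport in cilia and some sperm tails, was low in both sexes and lower in males (-1.47 ± 0.42).

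Leaving out A28 moved these lists little. The medians were then -5.23 for the cell cycle, -3.04 for DNA repair, -3.26 for chromatin and -4.36 for axis patterning. The lists with higher members in males, described next, had medians nearer 0 without A28, at 4.11 for cytochrome P450 genes, 3.73 for cuticle, 2.04 for serine proteases and 3.51 for neuronal genes. Members called higher in males were then 31, 21, 24 and 17 of these 4 lists.

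**Figure D4:**
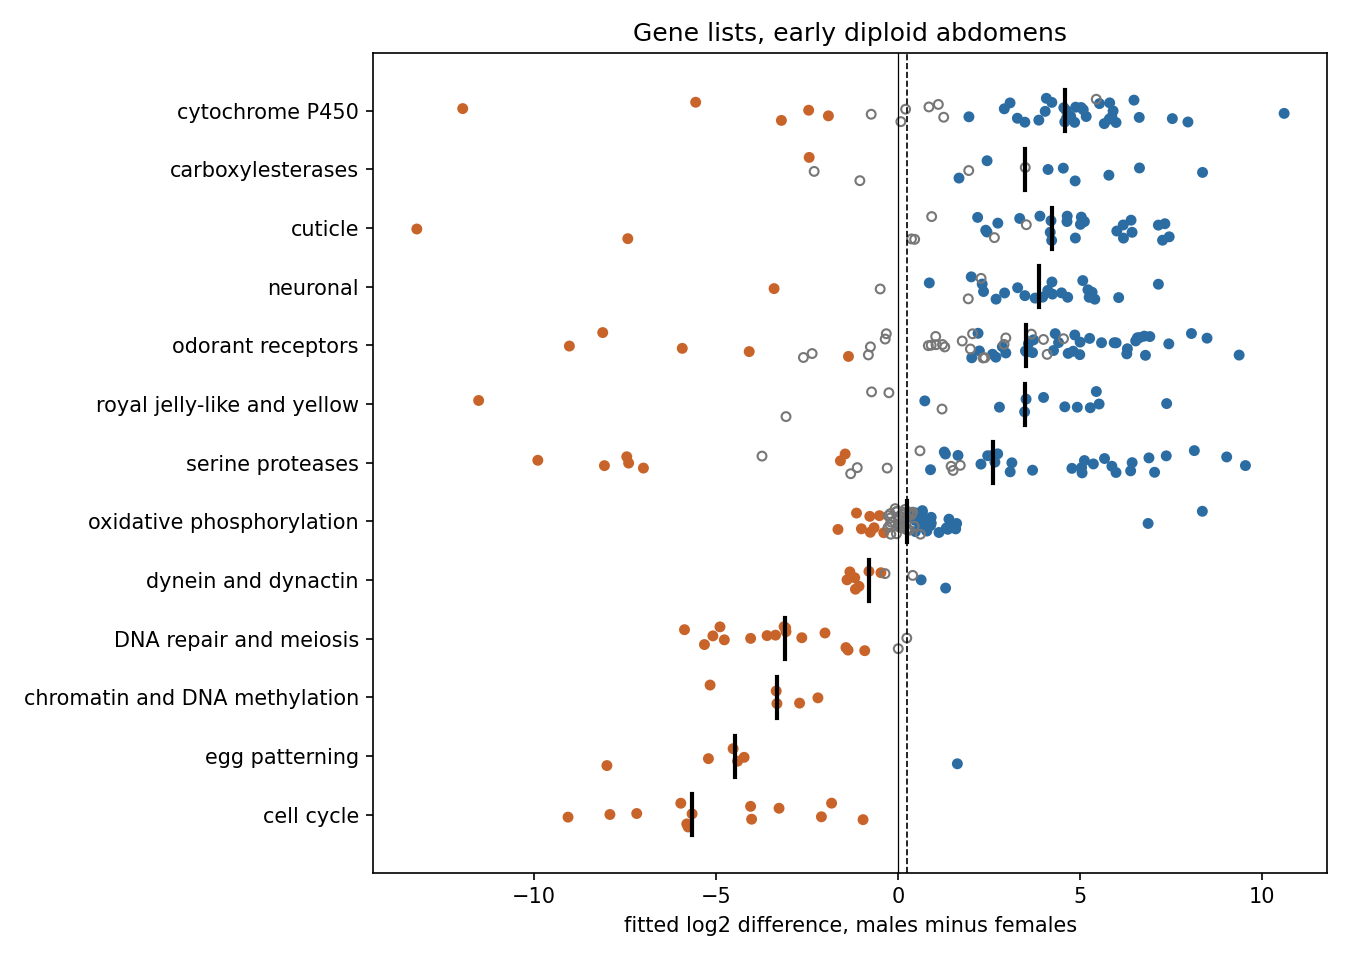
Fitted log2 difference, males minus females (horizontal axis), of the tested members of 13 gene lists (rows, with members spread vertically for view). Filled points were called, blue higher in males and orange higher in females, open points were not called, black bars are list medians and the dashed line is the median of all genes tested. The lists of cell cycle, egg patterning, chromatin and DNA repair genes have medians below -3, and those of cytochrome P450, cuticle and neuronal genes above 3.

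Of 73 genes of detoxification tested, 50 were higher in males (42.6% of all genes were) and 11 lower, with a median of 3.48. Genes with symbols that start with CYP counted 31 higher and 5 lower of 43, with a median of 4.58. All but *Cypl* carry names of cytochrome P450 genes, which encode oxidases of hormones, hydrocarbons and foreign compounds. The symbol *Cypl* has no P450 family number, yet the gene is counted among the 43 and the 73. The list is called that of cytochrome P450 genes with this limit. *CYP4G43* belongs to the CYP4G family, which makes cuticular hydrocarbons in insects. It had 11953, 13037 and 10136 CPM in males and 1394, 1279 and 472 in females (11.2-fold, 3.48 ± 0.38, adjusted p = 1.2e-09). *CYP4AB14* had 1287, 1468 and 1625 CPM in males and 0.305, 0.224 and 2.32 in females (10.60 ± 0.99), so A28 held more than the others. *CYP4AB21* differed by 7.96 ± 0.58 and *CYP6CK8* by 7.53 ± 1.07. Within the CYP4AB family, 7 of 11 were higher in males and 1 lower. That 1 was *CYP4AB18*, with no count in males and 30.6, 23.5 and 0.145 CPM in females, at least 391-fold lower in males and almost absent from A28.

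Carboxylesterase genes counted 8 higher and 1 lower in males of 13 tested. *CCE-A5* had 545 ± 34.7 CPM in males and 9.85 ± 7.82 in females, and *CCE-E7* differed by 8.36 ± 1.68. The 1 lower in males, *CCE-D4*, lay near the threshold (-2.44 ± 1.14, adjusted p = 0.049) and its libraries overlapped. Of 17 genes named for glutathione transferase 11 were higher in males and 5 lower, with a median of 1.96. Among the lower ones, *GstS8* had 23, 13.4 and 12.1 CPM in males and 539, 581 and 835 in females (-5.33 ± 0.38), and *GstS3* differed by -3.31 ± 0.34. *CYP9AG6*, a P450 gene of a family with 4 of 5 members higher in males, was lower in males at -2.45 ± 0.21. RSEM shares reads among near-identical genes by estimation, so values within these families, and among odorant receptors, are less certain than those of single genes.

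Of 48 cuticle protein genes, 31 passed the filter on low counts, which a gene could do through 1 sex alone. Of those 31, 24 were higher in males and 2 lower, with a median of 4.22. The alternatives called from 19 to 27 higher. *CPR16* had 1203, 1128 and 1083 CPM in males and 27, 22.6 and 3.51 in females (6.01 ± 0.67, adjusted p = 2.3e-09). The chitin-binding *Cpap3-b* (7.44 ± 0.78), *TWDL1* (5.01 ± 0.61) and *CPLCP1* (4.64 ± 0.49) were higher in males too, with under 1 CPM in every female library. Against this, *CPR39* had no count in males and 36.7, 58.3 and 35 CPM in females, at least 936-fold lower in males. *CPR40*, the other gene lower in males, stayed under 2 CPM. The summed level of the list was 2277 to 3150 CPM in males, 243 and 289 CPM in A26 and A27 and 52.4 CPM in A28.

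Serine protease genes differed in both directions. Of 43 tested, 28 were higher in males and 7 lower, with a median of 2.59. *SPH126* had 219, 294 and 199 CPM in males and 0.475, 0.352 and 0.109 in females (9.54 ± 1.35). *SP19* had 298, 209 and 322 CPM in males and 0.509, 0.256 and 2.21 in females (8.13 ± 0.91). All 3 male libraries lay far above all 3 female ones for both. *SP120* had 17, 25.1 and 17.7 CPM in males and 0.0679, 0.032 and 0 in females (9.02 ± 0.92). It rested on 3 counts over all females, which gives a ratio of 587 with a 95% counting interval of 200.4 to 2850.5. *SP37* was the reverse, with 0.203, 0.141 and 0.839 CPM in males and 286, 345 and 538 in females (-9.89 ± 0.59, adjusted p = 2e-15). *SPH90* had 0.203, 0.282 and 0 CPM in males and 32.7, 36.1 and 60 in females. A28 was the highest library for *SP37* and *SPH90*, while it had less than A26 and A27 of the 3 male genes except *SP19*.

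Genes of neurons were mostly higher in males, 22 of 26, with 1 lower and a median of 3.87. Synaptotagmin (*Syt1*), the calcium sensor of synaptic vesicles, had 169, 206 and 172 CPM in males and 13.9, 11.1 and 4.24 in females (18.7-fold, 4.22 ± 0.40, adjusted p = 6e-11). *pHCl*, a chloride channel gene, differed by 5.25 ± 0.61, and *Acpr*, a neuropeptide receptor gene, by 4.66 ± 0.61. Of 12 nicotinic acetylcholine receptor subunits, 10 were higher in males and none lower. The exception in the list was the potassium channel gene *Slo*, at 5.19 ± 0.675 CPM in males and 54.9 ± 13.1 in females (-3.40 ± 0.47). *Akhr*, the receptor through which adipokinetic hormone mobilises fat body stores, had 236, 244 and 192 CPM in males and 1.59, 2.91 and 0.181 in females (142-fold, 7.15 ± 0.71). The other 2 hormone genes, *Ecr* for the ecdysone receptor (1.24 ± 0.25) and *Adipor1* (0.57 ± 0.13), were higher in males as well.

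Chemosensory receptor genes were low in these abdomens. Of 214 odorant receptor genes, 64 passed the filter on low counts, and of those 36 were called higher in males and 5 lower, while the fit of the 6 libraries alone called 13 higher. A gene could pass through 1 sex alone, so these counts do not describe the family. *Or255* had 12.8, 6.67 and 9.99 CPM in males and 2 counts in all females together, in A28, a ratio of 430.4 with a 95% counting interval of 118.7 to 3562. *Or140* had 2.59, 2.21 and 2.27 CPM in males and 3 counts in all females, and *Or175* 4.92, 2.02 and 2.1 CPM in males and none in females. *Or133* was present in females at 1.39, 1.22 and 1.16 CPM and had no count in males. Of 46 gustatory and ionotropic receptor genes 12 were tested, and 8 were higher in males, among them *Gr2* at 18.3, 23.7 and 11.3 against 0.543, 0.705 and 0.0362 CPM. The alternatives called from 4 to 12 higher. These genes too could pass the filter through 1 sex alone, so the counts do not describe that family either.

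Other groups had fewer members or smaller differences. In the royal jelly-like and yellow family, 11 of 16 were higher in males and 1 was lower. *Mrjpl5* had 272, 311 and 342 CPM in males and 3.43, 1.79 and 0.326 in females (7.37 ± 0.79). The lower one, *Y-g2b*, had no count in males and 18.8, 21.2 and 0.109 CPM in females, so it was almost absent from A28. The 3 hexamerin genes, which encode storage proteins, were higher in males, with *Hex109* at 20, 30.6 and 23.6 against 1.8, 2.15 and 0.543 CPM and *Hex83* at 11.3, 17.7 and 21 against 1.39, 1.44 and 0.326. No vitellogenin gene carried a symbol in the table, so yolk protein is not described. *C1q-VP*, named as a venom protein, had 245, 299 and 342 CPM in males and 27.9, 21.7 and 0.579 in females (4.14 ± 0.73).

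Muscle genes gave 2 higher and 1 lower. Tropomyosin *Tm1* had 3098, 2121 and 2269 CPM in males and 782, 820.0 and 491 in females (1.84 ± 0.27), and *Zasp66* of the Z disc 534, 358 and 434 and 17.3, 15.6 and 1.85 (5.26 ± 0.66). *Tm2* was lower in males, at 65.7, 62.9 and 65 against 100.4, 93.4 and 111 CPM (-0.66 ± 0.10). Of 6 immunity genes 4 were higher in males, among them the signalling adaptor *Imd* (1.04 ± 0.23), the prophenoloxidase gene *ppo1* (3.03 ± 1.06), and the defensin gene *Def1-2* (3.20 ± 1.14). The call of *ppo1* was lost in the fit of the 6 libraries alone (adjusted p = 0.084 by edgeR). The call of *Def1-2* was lost without A28 (adjusted p = 0.054), and *ppo3*, under 1.1 CPM in every library, lost its call when A18, A20, A26 or A28 was left out and when no filter on low counts was used. *Acox3*, of peroxisomal fatty acid oxidation, was the only called gene of 3 in the lipid list (1.33 ± 0.19).

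Housekeeping groups were more even. Of 65 subunits and partners of the respiratory chain 24 were higher in males and 8 lower, with a median of 0.24 against 0.25 for all genes tested, and the median of the list fell to -0.07 in the lowest alternative. *Ndufa7* (1.58 ± 0.23), *Ndufa5* (1.33 ± 0.20) and *Uqcrq* (1.61 ± 0.26) were higher, and *Cox15* (-1.0 ± 0.15), an assembly factor, was lower. Without A16, 13 members rather than 24 were higher in males. *Cox6c* and *Cox7a1* were seen almost only in males, at 2.33, 0.47 and 1.68 and 10.4, 1.5 and 1.51 CPM. Of the 4 named ribosomal protein genes 0 were called by edgeR, 0 by DESeq2, and 0 had an unadjusted p under 0.05, while without A28 1 was called lower in males. The head markers stayed low in all 6 libraries, with *Pdf* and *Or1* under 1 CPM. *Lop1*, an eye opsin, was at 2.13, 5.31 and 0 CPM in males and 0, 0 and 0.109 in females, against 5546 CPM in the mean of diploid male heads of F3.

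The genes with the largest difference in mean level were mostly known by LOC numbers. *LOC100114997* had 22498, 11944 and 7418 CPM in males and 1.8, 1.6 and 6.77 in females. *LOC107981028*, annotated as a miscellaneous RNA, had 14455, 7076 and 4779 CPM in males and 184, 155 and 115 in females. *LOC107981454*, annotated as a transcribed pseudogene, had 16083, 11884 and 14981 CPM in males and 4144, 2389 and 1419 in females. In all 3 genes A16, A18 and A20 stood above every female library. *LOC100114467* had 6539, 8681 and 9022 CPM in males and 405, 349 and 79 in females. In each of these, and in *CYP4G43*, the sexes did not overlap. On the female side, *LOC100121988* had 232, 252 and 269 CPM in males and 7041, 8942 and 5999 in females. *LOC100119050* had 385, 368 and 371 CPM in males and 7280.0, 7243 and 7225 in females, with little spread in either sex. *LOC100119445* had 10.1, 5.36 and 7.51 CPM in males and 4233, 4260.4 and 4107 in females. *LOC100117412* had 772, 501 and 538 CPM in males and 4249, 4249 and 2899.9 in females, with A28 the lowest female library. Elongation factor *EF-1a*, which delivers tRNA to the ribosome, had 2918, 2961 and 2887 CPM in males and 7644, 9923 and 2278 in females (-1.18 ± 0.35, adjusted p = 0.0033). Its A28 level lay below all males, and the call was lost without A27 (adjusted p = 0.056) and in the fit of the 6 libraries alone (adjusted p = 0.058).

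Some genes were detected in 1 sex alone. The 5 lowest LOC genes by fitted difference had no count in any male. *LOC100678660* had 564, 649 and 1098 CPM in females, *LOC103317969* 342, 330.4 and 679, *LOC103316021* 308, 320.4 and 675, *LOC100679868* 289, 299 and 621 and *LOC103318011* 515, 702 and 2.46. They were at least 16646-, 9741-, 9388-, 8704- and 8785-fold lower in males. In 4 of the 5, A28 was the highest library, and in *LOC103318011* it was by far the lowest. The 5 highest had no count in any female library. *LOC103316810*, a long noncoding RNA gene, had 442, 128 and 159.7 CPM in males, *LOC103317397* 313, 97.3 and 200.1, *LOC100118976* 219, 104 and 127, *LOC100679689* 182, 91.9 and 150.2 and *LOC100116454* 228, 70.5 and 124. Against the level that 3 counts over the 3 female libraries would give (0.0340 CPM), they were from 4148- to 7164-fold higher in males at the least.

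Genes were called sex-limited, as a description, where every library of 1 sex was under 1 CPM and every library of the other at 5 CPM or more. There were 588 male-limited and 226 female-limited genes, and 205 and 130 with limits of 0.5 and 10 CPM. Only 22 of the male-limited and 8 of the female-limited genes carried a symbol other than a LOC number. The male ones included *Acpr*, *LCCH3*, *Gr2*, *Or255*, *SP120* and *Cpap3-b*, and the female ones *nanos*, *Cdk2*, *Ndc1*, *SP37*, *SPH90* and *CPR39*. Of the 226 female-limited genes, 175 met the same limits in the late diploid abdomens, F14 females against F15 males (77.4%). Of the 588 male-limited genes 57 did (9.69%). Among the male-limited genes, 204 still had at least 5 CPM in every F15 male library (34.7%), and 243 stayed under 1 CPM in every F14 female library (41.3%). The mean level in F3 diploid male heads was at least 5 CPM for 228 of the 588 male-limited genes (38.8%), and in F2 diploid female heads for 14 of the 226 female-limited ones (6.19%). Under 1 CPM in every early diploid head of either sex were 175 and 63. Without A28 the counts were 624 and 285.

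Long noncoding RNA genes, by the annotation of assembly Nvit_psr_1.1, were more often higher in males. Of 553 tested, 322 were higher in males (58.2%) and 55 lower (9.95%), with a median of 2.77. Among 11646 protein-coding genes, 4886 were higher (42.0%) and 4705 lower (40.4%), with a median of 0.10. Without A28, 289 of 592 noncoding genes tested were higher in males (48.8%) and 60 lower (10.1%), with a median of 2.58. The share of protein-coding genes without A28 is not given here. The shares differed with level. Among genes with a mean of 1 to 5 CPM over the 6 libraries, 66.9% of 142 noncoding and 68.2% of 1357 protein-coding genes were higher in males. Between 5 and 20 CPM the shares were 71.9% of 64 and 49.6% of 2035. These shares were not tested.

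The sex difference was spread over the genome. On chromosomes 1 to 5 between 41.3% and 45.2% of the tested genes were higher in males and between 37.2% and 40.4% lower. In order along the chromosomes, 146 stretches of at least 4 neighbouring tested genes were all called and at least 8-fold higher in males, and 15 were higher in females. Those classes held 26.6% and 11.3% of all genes tested, and the order was not tested. The longest, of 10 genes on chromosome 5 from *LOC107982225* to *LOC116417628*, was female, with no member above a mean of 0.737 CPM in males or 22.2 CPM in females. A female stretch of 5 genes on chromosome 1 ended at *LOC103316021*, which had no count in males. The 2 longest male stretches held 9 genes each, and one on chromosome 5 held 8 genes and ended at *CYP9AG7*. Another male stretch of 8 genes on chromosome 1 started at the receptor gene *nAChRa2*.

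Of 25 genes that the assembly places on PSR, a supernumerary chromosome that turns fertilised eggs into males by destroying paternal chromosomes, 5 passed the filter and 4 of these were higher in males. *LOC107981687* had 298, 236 and 219 CPM in males and 12, 10.5 and 2.39 in females, and *LOC116418037* 530.1, 179.9 and 260.1 and 0, 0.0961 and 2.1. A28 was the lowest female library for the first and the highest for the second. *LOC116417999* was at 0, 3.19 and 14 CPM in males and had no count in females, and its call was lost without A20 or any 1 female library (adjusted p from 0.080 to 0.099). *LOC116418012* stayed under 1.3 CPM in every library, and 19 of the 25 had no count in any of the 6 libraries. Which copies of these sequences the wasps carried cannot be read from counts per gene.

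The same contrast was made in the late generations, with 5 libraries of F15 diploid males and 5 of F14 diploid females. There 9236 of 12252 genes were called (75.4%), 4720 higher in males (38.5%) and 4516 lower (36.9%). At least 8-fold higher in males were 1270 genes (10.4%), against 3255 early, while the female counts were 1102 (8.99%) and 1386. The late difference minus the early one was called for 5521 genes (45.1%), 2686 positive (21.9%) and 2835 negative (23.1%). Changes of at least 8-fold were called for 129 genes in the positive direction (1.05%) and 1194 in the negative (9.75%). The 8-fold counts of early differences and of changes include A28, which lay low for many genes higher in males. Among the 5521, 2382 genes that were called higher in males early had a smaller or reversed difference late, and 227 a larger one. Of the called female-higher genes, 2098 moved towards or past 0, and 209 moved farther away. These genes were grouped by their early call, and the change subtracts that same early estimate. Error in the early estimate therefore favours a smaller late difference in both sexes. For that reason these counts cannot tell whether the sex difference shrank. Genes called in both with opposite direction, and with the change itself called, numbered 382. Of those, 273 were female-higher early and male-higher late, and 109 the reverse. Without A28 the change was called for 4737 genes, 2469 positive and 2268 negative. Positive calls also outnumbered negative ones when any 1 of the 3 male libraries was left out, as with 2784 and 2442 without A16.

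*Tra* was 1 of those that turned. In late males its level was 30.3 to 50.4 CPM, and in late females 81.8 to 118 CPM, so that the late difference was -1.53 ± 0.16, opposite to the early one. The change was -2.32 ± 0.27 (adjusted p = 6.7e-08). *Dsx* was 333 to 511 CPM in late males, near the early male level, and 104 to 215 CPM in late females, above every early female. The late difference was 1.18 ± 0.35 and the change -2.77 ± 0.58 (adjusted p = 0.00027). *Fru* also differed less late (-0.56 ± 0.15), a change of 0.82 ± 0.25 (adjusted p = 0.0073).

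The gene lists differed in how they changed. The germ plasm genes had no called change, though *nanos*, with no count in early males, was at 3.73 ± 1.79 (adjusted p = 0.091 by edgeR). *oskar* stood at 407 to 648 CPM in late females and 0.783 to 1.66 CPM in late males, a late difference of -8.71 ± 0.44. Of the 13 cell cycle genes 4 had a called change, all towards a smaller difference, among them *cycD* (2.89 ± 0.64) and *Cenp-a* (1.46 ± 0.36), while *cycB* (-0.19 ± 0.93) and *Cdk1* (0.13 ± 0.70) were not called. All 5 chromatin genes and 11 of 18 genes of DNA repair had a called change towards males, against 21.9% of all genes. Most members of both lists were called higher in females early. Of all 4760 genes called higher in females early, 2098 had a called change towards or past 0. Those genes are the closer comparison, and no test was made against them. *Rpd3* changed by 3.63 ± 0.34 (adjusted p = 2.3e-09), with late males at 40.8 to 60.9 CPM and late females at 132 to 158. *Ahcy* changed by 2.93 ± 0.61 and was not called late (-0.39 ± 0.37, adjusted p = 0.34).

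Of all genes, 23.1% had a called change towards females. Of the 5222 genes called higher in males early, 2382 had a called change to a smaller or reversed difference. Most cuticle and neuronal genes were called higher in males early, so those 5222 are the closer comparison for them. No test was made against that share. Of 31 cuticle genes 20 had a called change towards females and none towards males, and of 26 neuronal genes 16 towards females and 2 towards males. The share was nearer to that of all genes for detoxification, with 18 of 73 towards females and 13 towards males, and for serine proteases, with 10 of 43 towards females and 3 towards males. These counts include A28, whose summed cuticle level was 52.4 CPM against 243 and 289 in A26 and A27. Without A28 the early medians were 3.73 for cuticle and 3.51 for neuronal genes. The late medians in the main fit were 1.02 and 0.90. Counts of changes per list without A28 are not given here. *Syt1* changed by -2.99 ± 0.46, with late females at 25.5 to 46.1 CPM against 13.9, 11.1 and 4.24 early. *Tm1* was not called late (0.33 ± 0.20, adjusted p = 0.14), its female level being 1104 to 1514 CPM there. *Akhr* changed by -3.01 ± 0.72 but kept a late difference of 4.14 ± 0.47. *CYP4AB14* (0.98 ± 0.92), *CYP4G43* (-0.53 ± 0.44) and *SP19* (0.23 ± 0.92) had no called change.

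Haploid males of F3 (5 libraries) were set beside the same 3 female libraries, so the values below share those libraries with the main comparison. Haploid males differed from F2 females at 10259 genes (83.7%), and diploid from haploid males of F3 at 4513 (36.8%). *Tra* stood at 20.9 to 29.4 CPM in haploid males, below every diploid male and overlapping only A28 among the females, and diploid males were higher than haploid ones by 1.52 ± 0.18 (adjusted p = 1.3e-07). *Dsx* was at 473 to 714 CPM and *Fru* at 29.5 to 50.8 CPM in haploid males, and they differed from diploid males by -0.31 ± 0.40 and -0.68 ± 0.18 (diploid minus haploid, adjusted p = 0.57 and 0.0032). *nanos* was at 0 to 0.0988 CPM and *oskar* at 1.53 to 2.61 CPM in them. Of the 588 male-limited genes 428 had at least 5 CPM in every haploid male library (72.8%), and of the 226 female-limited ones 1 did. *Cox7a1* was higher in haploid males, at 29.6 to 63.2 CPM, than in any diploid male.

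**Figure D5:**
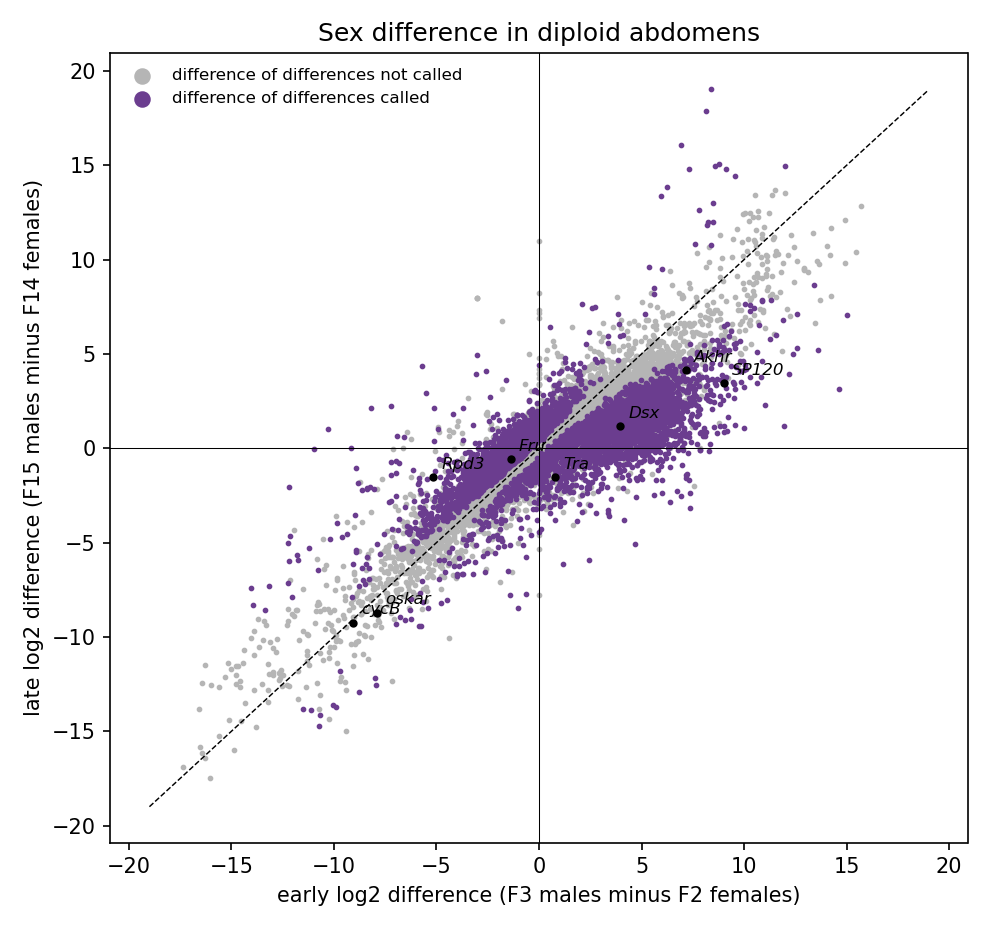
Fitted log2 difference, males minus females, in late diploid abdomens (F15 males, F14 females; vertical axis) against that in early ones (F3 males, F2 females; horizontal axis) for the genes tested. Purple points had a called difference between the 2 contrasts, and the dashed line marks equal differences. *Tra* lies on opposite sides of 0 early and late, while *oskar* and *cycB* lie near the line.

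The genes with the largest called changes between early and late were known by LOC numbers, and most had a group at 0. *LOC103316397* had 105, 97.6 and 147 CPM in early males and none in early females, against 1.35 to 10.8 CPM in late males and 0.364 to 1.47 CPM in late females. It stood at 3.18 to 16.1 CPM in F3 haploid males. *LOC116417110* had no count in early females, with 21.8, 10.7 and 22.6 CPM in early males, 18.2 to 30.2 in late males and 3.96 to 16.4 in late females. The reverse was seen for *LOC100114710*, *LOC103316626* and *LOC100123019*, which had no count in early diploid males. *LOC103316626* had 8.31, 7.4 and 12.3 CPM in early females, 8.62 to 15.2 in late males, 8.01 to 14.6 in late females and 5.16 to 13 in F3 haploid males. *LOC100114710* had 7.09, 5.51 and 4.82 CPM in early females, 7.65 to 16.1 in late males and 2.02 to 5.19 in F3 haploid males. Every library of the other groups given here had counts of these 2 genes.

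In heads of the same early diploid groups, with 5 libraries each, the sexes differed less. There 4883 of 12086 genes were called (40.4%), 2488 higher in males (20.6%) and 2395 lower (19.8%), and 165 (1.37%) and 336 (2.78%) were at least 8-fold different. The abdomen difference minus the head difference was called for 9060 genes (75%), 4854 positive (40.2%) and 4206 negative (34.8%). All 3 sex determination genes were lower in male heads. *Tra* was at 81.6 to 155 CPM in male heads and 276 to 324 in female heads (-1.47 ± 0.18, adjusted p = 3.1e-05). *Dsx*, at 95.9 to 121 and 256 to 361 CPM, was lower in male heads (-1.46 ± 0.35) and higher in male abdomens, and the 2 tissues differed by 5.54 ± 0.61 (adjusted p = 1.3e-06). *Fru* was lower in males in both, with a difference of -2.44 ± 0.16 in heads.

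Lists that were female-higher in the abdomen were also counted in heads. Of the 5 chromatin genes 4 were lower in males in heads too and 1 was higher. A tissue difference was called for each of 13 cell cycle genes and for 16 of 18 genes of DNA repair, in every case more female in the abdomen. In heads, 3 of the cell cycle genes were lower in males and 2 higher, and of the DNA repair genes 2 were lower and 6 higher. *Cdk1* differed by -0.18 ± 0.50 in heads (adjusted p = 0.8) and *oskar* by 0.42 ± 0.35 (adjusted p = 0.36). *Syt1*, the neuronal gene that was 18.7-fold higher in male abdomens, differed by -0.20 ± 0.23 in heads (adjusted p = 0.52). *CYP4AB14* was higher in males in both tissues (5.78 ± 0.53 in heads). *LOC100114997*, the gene with the largest difference in mean level, was also a male gene in heads, at 725 to 8396 CPM in males and 0 to 0.35 CPM in females (14.69 ± 1.14). Of the odorant receptor genes, 149 passed the filter in the fit with heads, and there 118 were lower in males and 1 was higher. These are not the genes counted in the abdomen alone, and a gene could pass through 1 group, so neither count describes the family.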

How the data were processed

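The analysis used 36 abdomen libraries of 8 groups and, for heads, the 16 libraries of the 4 early diploid groups, taken by their labels. Estimated counts per gene were deposited by the authors, made from polyA RNA with STAR 2.7.11a and RSEM 1.3.1 per the submitters' processing notes. The sources used here name no genome build, annotation or strand setting. RSEM divides reads among similar genes by estimation. Expected counts were rounded to whole numbers. A TPM table of the same genes, also deposited by the authors, served only to check the column names: each of the 6 libraries ranked closest to its own TPM column. Gene symbols, biotypes and chromosome order came from the RefSeq table of assembly Nvit_psr_1.1, which matched 14621 genes and was used for names and neighbours alone.

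Counts were tested with edgeR 4.0.16 (R 4.3.3, limma 3.58.1): TMM scaling, filterByExpr, 1 mean per group, robust quasi-likelihood fit and Benjamini-Hochberg adjustment with a threshold of 0.05. CPM used the scaled library sizes, so the values of a library need not sum to the nominal total. Alternatives were RLE scaling, no filter, DESeq2 1.42.0, the 6 libraries or the 4 diploid abdomen groups alone, and each library left out. Bounds against groups without counts used 3 counts over the group, and 95% intervals of ratios from 1 to 3 counts were exact. Both cover counting error only, and reads without molecular identifiers are not independent molecules.

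Named genes were *Tra*, *Dsx* and *Fru*, the called genes with the highest and lowest differences (10 with symbols and 5 LOC genes each way), the 5 each way by difference in mean CPM, up to 4 members per list by adjusted p, and the 5 each way in the 2 tests of a difference between contrasts. Other genes were picked after their values were seen. The comparison, its members and the gene lists were chosen with earlier results of these data known. Gene lists were made by symbol pattern, and some members were then added or dropped by name. The lists of the cell cycle and of DNA repair gained members in that way, and the dynein and dynactin list was made by name. The lists were therefore not fixed by the patterns alone. The test was run on simulated counts with a coefficient of variation of 0.35, which need not match that of the data. It found 10% and 90% of log2 differences of 1 and 2 between the sexes. For the change from early to late it found 0% and 44%, and for abdomen against head 6% and 56%. A change that was not called may therefore still exist. Some members of the list of DNA repair and meiosis are counted but not reported here by name.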

Additional observations from a re-analysis of the deposited data

Results flagged for a closer look

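The fitted sex difference in abdomens differed between early and late at many genes. The late difference minus the early one was called for 5521 genes by edgeR, and the abdomen difference minus the head difference for 9060. Without A28 the change from early to late was called for 4737 genes, 2469 positive and 2268 negative. *Tra* changed by -2.32 from early to late and was 2.36 higher in the abdomen contrast than in heads, *Dsx* by -2.77 and 5.54, and *Fru* by 0.82 and 1.16, each on the log2 scale. All 6 of these tests were called.

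Among the genes with the largest called changes from early to late, the change was negative for *LOC103316397* (-11.51), *LOC116417110* (-10.77), *LOC100679127* (-10.51), *LOC100122706* (-8.93) and *LOC116417649* (-8.74). It was positive for *LOC100123019* (10.18), *LOC100679894* (10.37), *LOC100119680* (10.67), *LOC103316626* (10.94) and *LOC100114710* (11.33). All are fitted log2 values, and where a group had no counts they depend on the small count that edgeR adds, so their size is not a measure of fold. *LOC100679127* had 14, 6.76 and 10.4 CPM in early males, 0, 0 and 0.181 in early females, 0 in late males and 0 to 0.182 in late females. *LOC100122706* had 47.2, 39.3 and 32 CPM in early males and 3 counts in all early females, against 0.569 to 0.826 CPM in late males and 0 to 0.912 in late females. *LOC100679894* had 0, 0 and 0 CPM in early males, 1.73, 1.47 and 0.833 in early females, 0 to 19.6 in late males and 0 to 5.15 in late females. *LOC100119680* was at 0 CPM in every late female library and had reads early in A28 alone, at 34.1 CPM. *LOC116417649* had 10.8, 11.1 and 7.17 CPM in early males and no count in early females, and its call was lost without any 1 of the female libraries (adjusted p from 0.056 to 0.058).

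Between abdomen and head, the fitted differences were lowest for *LOC116416007* (-15.04), *LOC100121781* (-14.94), *LOC100118072* (-14.47), *LOC100680001* (-13.99) and *LOC100119506* (-13.10), which had no count in male abdomens. They were highest for *LOC103316810* (14.94), *LOC103316015* (15.35), *LOC116738600* (15.96), *LOC116417999* (17.49) and *LOC100116454* (18.02), which had none in female abdomens, so the same limit on their size holds. *LOC100118072* belongs to the stretch of 10 female genes on chromosome 5. *LOC103316015* had 118, 60.1 and 88 CPM in male abdomens, 0 to 0.32 in male heads and 0.0321 to 0.644 in female heads. *LOC116738600* had 37, 10.8 and 12.9, 0 and 0 to 0.142 in the same order. *LOC100121781* had 15.7, 16.7 and 15.1 CPM in female abdomens, 1.48 to 3.02 in male heads and 0 to 0.437 in female heads.

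In the groups of 5 late libraries used beside the comparison, 1 library stood apart from the other 4 for *Tra* in F15 males (50.4 CPM, with a group median of 33.4) and for *LOC100679127* in F14 females (0.182 CPM). The rule marks about 1 group in 20 by chance. That rate need not hold for *LOC100679127*, for which no F14 female library was above 0.182 CPM.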

How the results depend on the processing

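The count of called genes over the whole table, in each comparison, stayed within 1.5 times its value under each alternative that was run. Within gene lists, 34 counts under an alternative moved further, among them odorant receptors higher in males (13 in the fit of the 6 libraries alone) and respiratory chain genes higher in males (13 without A16). Calls between the sexes numbered 8793 in the fit of the 6 libraries alone, 9656 with the diploid groups alone, 9976 with RLE scaling, 10170 without the filter and 10167 with DESeq2. They were 8643 with a 2-fold limit, and 9652 to 9801 with 1 library left out. With 1 library left out, calls of the change from early to late ranged from 4737 to 5320, and those of abdomen against head from 8785 to 9032. The counts of sex-limited genes depended on the limits. With 0.5 and 10 CPM they were 205 male and 130 female, while leaving out 1 library gave 619 to 693 and 229 to 285. The median of all genes ranged from -0.03 (6 libraries alone) to 0.48 (RLE). RLE split the calls 5577 to 4399 and DESeq2 5720 to 4447, so small differences depend on scaling.

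Of 120 named genes, 115 kept direction and side of the threshold in the test of males against females under every alternative that tested them, 5 lost the call under at least 1, and 0 changed direction. The fit of the 6 libraries alone did not test 6 of the 120, *CYP4AB18* and *Y-g2b* among them, since they did not pass its filter, and the fit of the diploid groups alone did not test 2. The change of *LOC100119680* from early to late was 10.67 and turned to -0.60 without A28, where the gene then had no count in any female library, and was 11.26 without A26. In heads, leaving out the head library A15A, an alternative chosen after seeing the data, gave 4673 calls between the sexes and 9178 for abdomen against head.

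No paired analysis was made. No library number is shared between the groups, and the labels do not tell whether heads and abdomens came from the same wasps. The test of abdomen against head treated the libraries as independent. Depth, 21158695 to 30373012 counts per library, limits the genes with few or no counts in 1 sex, for which bounds or counting intervals are given.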
